A study of Mus musculus with 7 samples.

Results

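The genes described here are 10 genes of mRNA storage and translational control in male germ cells: the Y-box genes *Ybx1*, *Ybx2* and *Ybx3*, the poly(A) polymerase genes *Papola* and *Papolb*, the poly(A)-binding protein genes *Pabpc1* and *Pabpc6*, the DAZ family genes *Boll* and *Dazl*, and the initiation factor gene *Eif4g3*. They were chosen by gene symbol, and all 10 are among the 19719 genes listed in a table of testis RNA levels. All 10 also passed the filter on low values (above 1 CPM in 3 or more of the 7 libraries), as did 19400 genes in all. CPM is the read count of a gene relative to the scaled size of its library.

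RNA of total testis was sequenced from C57BL/6 males aged 8 weeks, with 3 fl/Y libraries and 4 cKO/Y Sox2-Cre libraries. The fl/Y males carry the floxed allele of the X-linked ubiquitin ligase gene *Rlim*, which is labelled WT in the deposited records, and the cKO/Y Sox2-Cre males carry the same allele deleted by a Cre that acts in the early epiblast, so that both somatic cells and the germline of the testis lack RLIM. The question of the comparison is which testis RNAs differ when *Rlim* is missing. The labels also give 2 batches that hold both genotypes: batch 2 holds replicates 1 and 2 of each genotype, and batch 1 holds fl/Y replicate 3 and cKO/Y replicates 3 and 4. What set the batches apart is not given in the labels. The libraries are described as biological replicates from littermates, and whether animals were pooled is not stated in the sources used here.

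Developing sperm cells pack their DNA so tightly that transcription stops long before the cell is finished. Late proteins, such as the protamines, are therefore made from mRNAs that were transcribed earlier, bound by proteins into repressed particles, and released for translation on a schedule. Y-box proteins coat such mRNAs, poly(A) polymerases and poly(A)-binding proteins set and read the length of the tail, DAZ family proteins bind chosen mRNAs and promote their translation, and eIF4G proteins form the scaffold on which the cap and the tail meet the ribosome.

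Several of these genes are copies of each other, so the coding sequences were compared first, since the reads were paired ends of 35 bases. For 3 of the pairs compared, the sequences below are the 60-base coding windows of closest match. They are from the main coding transcript of each gene on GRCm38, and capitals mark the bases that differ within a pair.
Ybx2, coding bases 292 to 351: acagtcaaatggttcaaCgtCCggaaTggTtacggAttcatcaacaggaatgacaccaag
Ybx1, coding bases 178 to 237: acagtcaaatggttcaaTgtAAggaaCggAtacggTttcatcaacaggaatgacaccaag
Papolb, coding bases 928 to 987: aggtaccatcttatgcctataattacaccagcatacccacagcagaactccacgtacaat
Papola, coding bases 925 to 984: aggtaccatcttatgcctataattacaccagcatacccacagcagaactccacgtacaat
Boll, coding bases 201 to 260: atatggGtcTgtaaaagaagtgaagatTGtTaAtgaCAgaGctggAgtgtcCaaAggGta
Dazl, coding bases 186 to 245: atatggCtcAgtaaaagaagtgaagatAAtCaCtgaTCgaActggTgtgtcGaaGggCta

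*Ybx2* and *Ybx1* share 54 of these 60 bases, and *Boll* and *Dazl* share 47. Over the whole coding sequences, the longest identical runs of these pairs are 26 and 17 bases. *Papolb* and *Papola* are identical over the whole window, inside an identical run of 65 bases, so a read from that stretch could belong to either gene. Only 55 words of 35 bases are held by both genes, and words shared with any other gene make up 1.31% of the transcript sequence of *Papolb* and 1.96% of that of *Papola*. *Pabpc6* and *Pabpc1* share 58 of 60 bases in their closest window (not printed). Their longest identical run, 42 bases, is also longer than a read of 35 bases. Of their words, *Ybx2*, *Ybx3*, *Boll* and *Dazl* share none with another gene, *Pabpc6* shares 0.408% and *Eif4g3* shares 0.168%. The exceptions are *Ybx1*, with 23.0% of its words also found in 8 pseudogenes, and *Pabpc1*, with 14.6% found elsewhere, mostly in the pseudogenes Gm16580 and Gm8276. Levels of *Ybx1* and *Pabpc1* are less certain for this reason, since the counting may have split or dropped such reads.

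Y-box proteins were named for the Y box, a promoter element that holds the letters CCAAT on either strand. The next sequences are therefore upstream stretches of the first Y-box gene and of the pair of genes that differed most between batches (*Ybx2* and *Dazl*), from RefSeq on GRCm38.p6, cut where the first annotated exon begins, with CCAAT or its reverse ATTGG in capitals.
Ybx1, chr4:119294605-119294763, minus strand: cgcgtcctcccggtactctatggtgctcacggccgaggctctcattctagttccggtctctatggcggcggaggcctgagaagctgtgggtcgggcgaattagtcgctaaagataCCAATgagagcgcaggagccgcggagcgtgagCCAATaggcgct
Ybx2, chr11:69935649-69935795, plus strand: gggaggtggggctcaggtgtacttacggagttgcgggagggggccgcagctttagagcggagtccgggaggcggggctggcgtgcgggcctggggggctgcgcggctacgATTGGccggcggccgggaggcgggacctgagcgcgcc
Dazl, chr17:50293637-50293870, minus strand: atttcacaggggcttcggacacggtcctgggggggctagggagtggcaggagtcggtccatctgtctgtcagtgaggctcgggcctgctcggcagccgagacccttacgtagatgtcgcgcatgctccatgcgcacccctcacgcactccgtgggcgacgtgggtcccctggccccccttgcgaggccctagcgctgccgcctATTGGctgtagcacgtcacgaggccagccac

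In the 250 bases before a RefSeq start site, CCAAT on either strand was found for 5 of the 8 genes with a promoter entry: *Ybx1* (3 matches), *Ybx2* (2), *Papolb*, *Boll* and *Dazl* (1 each). Some genes have more than 1 start site, so this is 5 of their 11 promoter windows, beside 33.8% of 32851 mouse promoter windows of that length. Other letters were searched on either strand in the same windows. CACGTG was found for *Boll* alone and in 6.02% of all promoters, while TGACGTCA (1.55% of all promoters) and TATAAA (12.4%) were found for none of the 8. These matches describe the letters only.

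The libraries held 2822168 to 8633399 reads in listed genes, and each of the 10 genes had 271 to 13965 reads in every library. *Rlim* itself was lower in every cKO/Y library (20.7 to 35.7 CPM) than in any fl/Y library (61.5 to 99.5 CPM), with a log2 difference of -1.38 (SE 0.16, limma adjusted p = 0.00870). Markers of germ cells from spermatogonia to elongating spermatids and of Sertoli and Leydig cells were detected, and none of 6 epididymis markers is among the listed genes. The RNA is of the whole testis, so fewer cells of a type and less RNA per cell cannot be told apart.

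Between genotypes, none of the 10 genes passed the test (limma, 0 of 10 with adjusted p under 0.05), beside 1 of 19400 genes over the whole table (0.00515%), which is *Rlim*. None of the 10 had an unadjusted p under 0.05 either, beside 501 of all genes (2.58%), and the smallest was 0.475. Their log2 differences, cKO/Y minus fl/Y, ran from -0.070 for *Ybx3* to 0.14 for *Pabpc1*, 5 above and 5 below 0. The median size of the difference was 0.046 for the 10 genes and 0.14 for all genes tested. The median SE was also smaller for the 10 genes (0.177) than for all genes tested (0.246). The genotypes overlapped for every one of the 10, whereas they did not overlap for 2.92% of all genes. The 95% intervals reached from a ratio of 0.738 at the lowest (*Papolb*) to 1.45 at the highest (*Pabpc1*), so changes within these bounds cannot be told from none with 3 and 4 libraries. All differences are on the scale of log2(CPM + 0.5).

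**Figure D1:**
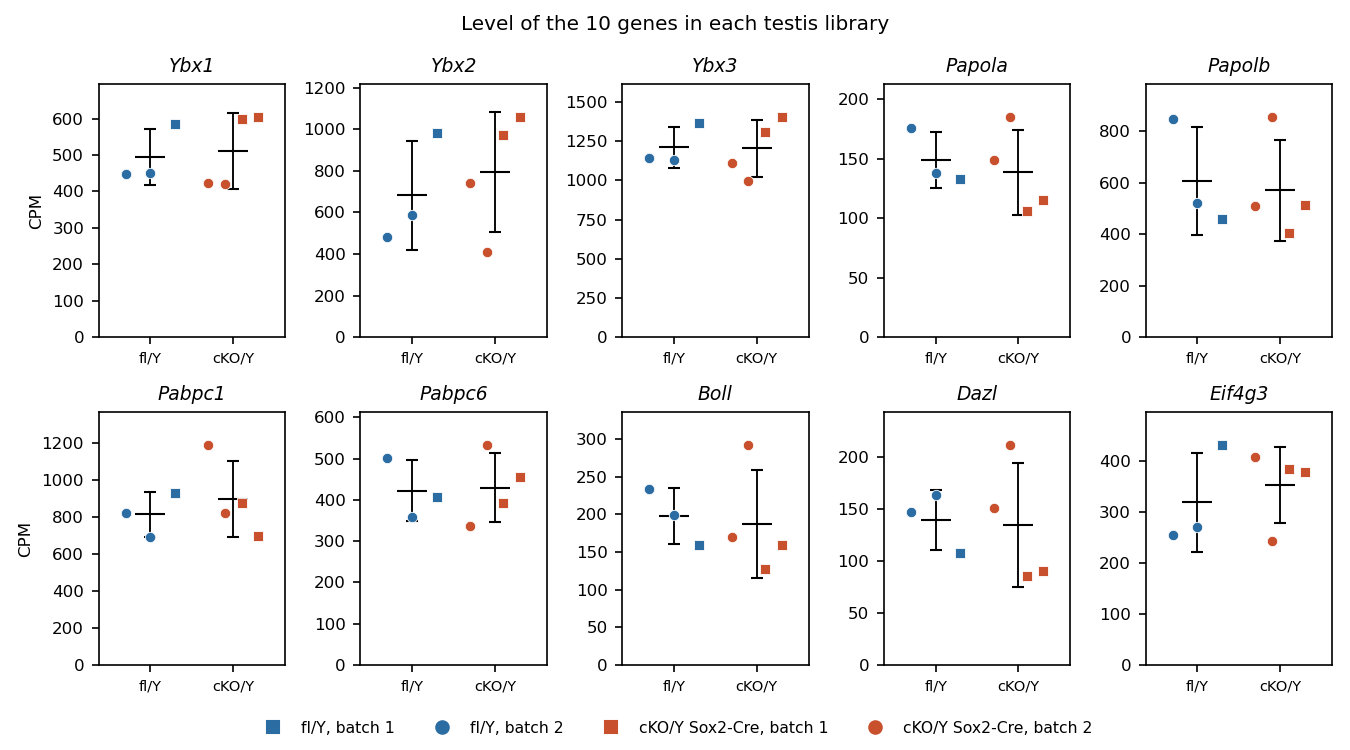
CPM of each of the 10 genes by library, blue for the 3 fl/Y males and orange for the 4 males with Sox2-Cre, squares for batch 1 and circles for batch 2, with the mean and SD of each genotype in black. The genotypes overlap in every panel, while squares and circles separate for *Ybx1*, *Ybx2*, *Ybx3*, *Papola*, *Boll* and *Dazl*.

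*Ybx2* (chr11:69935796-69941605, plus strand) encodes the germ cell Y-box protein known as MSY2, a main coat protein of stored mRNAs. It was at 479.8, 587 and 980.3 CPM in fl/Y replicates 1 to 3 and at 740.4, 411, 972 and 1057 CPM in cKO/Y replicates 1 to 4. The 3 libraries of batch 1 were the highest and cKO/Y replicate 2 the lowest, and the genotypes overlapped. The mean was 682 ± 263 CPM (SD, n = 3) in fl/Y and 795 ± 289 (SD, n = 4) in cKO/Y, with a log2 difference of 0.052 (SE 0.19), whose 95% interval spans ratios of 0.786 to 1.37.

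*Ybx3* (chr6:131364855-131388476, minus strand), the gene of MSY4, which is found with MSY2 on stored mRNAs, was at 1139.9, 1129 and 1364 CPM in fl/Y and at 1112, 995, 1306 and 1402 CPM in cKO/Y. The batch 1 libraries were again the highest of both genotypes, and cKO/Y replicate 2 was again the lowest. The means were 1211 ± 133 (SD, n = 3) and 1204 ± 184 CPM (SD, n = 4), with a log2 difference of -0.070 (SE 0.15) and an interval of 0.765 to 1.19 as a ratio.

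*Ybx1* (chr4:119277981-119294604, minus strand), the Y-box gene used in most cell types, was at 449, 451 and 584 CPM in fl/Y and at 422, 420.2, 598 and 603 CPM in cKO/Y. The libraries fell into a batch 1 range of 584 to 603 CPM and a batch 2 range of 420.2 to 451 CPM, whichever the genotype. Means of 495 ± 77.7 (SD, n = 3) and 511 ± 104 CPM (SD, n = 4) gave a log2 difference of -0.041 (SE 0.13) once the batch was in the fit, and the interval was 0.797 to 1.19 as a ratio.

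*Papolb* (chr5:142525838-142530076, minus strand) is a single-exon gene that lies between exons of *Radil* on the same strand and encodes the cytoplasmic poly(A) polymerase of round spermatids, known as TPAP. It was at 847, 519.6 and 458 CPM in fl/Y and at 509.9, 854, 406 and 513 CPM in cKO/Y. One library of each genotype, fl/Y replicate 1 and cKO/Y replicate 2, stood well above the rest, and both are of batch 2. The means of 608 ± 209 (SD, n = 3) and 571 ± 195 CPM (SD, n = 4) had a log2 difference of -0.0060 (SE 0.20), with a 95% interval of 0.738 to 1.34 as a ratio.

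*Papola* (chr12:105784694-105838944, plus strand), the general nuclear poly(A) polymerase, was at 176, 138 and 133 CPM in fl/Y and at 149, 185, 106 and 115 CPM in cKO/Y. The batch 1 libraries were the lowest of each genotype, cKO/Y replicate 2 was the highest of all, and the genotypes overlapped. The means were 149 ± 23.4 (SD, n = 3) and 139 ± 35.8 CPM (SD, n = 4), and the log2 difference was -0.052 (SE 0.15, interval 0.769 to 1.21 as a ratio).

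*Pabpc1* (chr15:36595661-36608973, minus strand), the main cytoplasmic poly(A)-binding protein, which bridges the tail to eIF4G, was at 820.1, 688 and 930.1 CPM in fl/Y and at 1186, 823, 876 and 698 CPM in cKO/Y. cKO/Y replicate 1 was the highest library, and without it the log2 difference went from 0.14 (SE 0.19) to -0.059. The means were 813 ± 121 (SD, n = 3) and 896 ± 208 CPM (SD, n = 4), and the interval had the highest upper bound of the 10, at ratios of 0.834 to 1.45. Within batch 1 the difference was -0.25 and within batch 2 it was 0.39.

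*Pabpc6* (chr17:9666497-9669704, minus strand), a single-exon relative of *Pabpc1*, was at 503, 359 and 406 CPM in fl/Y and at 337, 533, 394 and 455 CPM in cKO/Y. The lowest and the highest library were both cKO/Y libraries of batch 2. Means of 423 ± 73.1 (SD, n = 3) and 429.7 ± 84.1 CPM (SD, n = 4) gave a log2 difference of 0.021 (SE 0.18, interval 0.781 to 1.32 as a ratio).

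*Dazl* (chr17:50279394-50293599, minus strand) encodes an RNA-binding protein needed for germ cells to enter and pass meiosis. It was at 147, 163 and 107 CPM in fl/Y and at 151, 211, 85.3 and 90.2 CPM in cKO/Y. The 3 libraries of batch 1 were the lowest, and the genotypes overlapped. The means of 139 ± 28.7 (SD, n = 3) and 134 ± 59.3 CPM (SD, n = 4) gave a log2 difference of 0.0071 (SE 0.16, interval 0.792 to 1.28 as a ratio), with -0.29 within batch 1 and 0.21 within batch 2.

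*Boll* (chr1:55248658-55363469, minus strand), the family member that acts later, after meiosis, was at 234, 199 and 159 CPM in fl/Y and at 170.3, 292, 127 and 159 CPM in cKO/Y. cKO/Y replicate 2 was the highest and cKO/Y replicate 3 the lowest, so the fl/Y libraries lay inside the cKO/Y range. The means were 197 ± 37.2 (SD, n = 3) and 187 ± 72.1 CPM (SD, n = 4), with a log2 difference of -0.038 (SE 0.18, interval 0.747 to 1.27 as a ratio).

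*Eif4g3* (chr4:137993022-138208508, plus strand) encodes an eIF4G scaffold that spermatocytes need to leave meiotic prophase. It was at 254, 271 and 431 CPM in fl/Y and at 407, 243, 384 and 379 CPM in cKO/Y. fl/Y replicate 3 was the highest library, and 3 libraries of batch 2 were the lowest. The means were 319 ± 97.5 (SD, n = 3) and 353 ± 74.4 CPM (SD, n = 4), with a log2 difference of 0.086 (SE 0.18, interval 0.818 to 1.38 as a ratio), with -0.18 within batch 1 and 0.26 within batch 2.

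**Figure D2:**
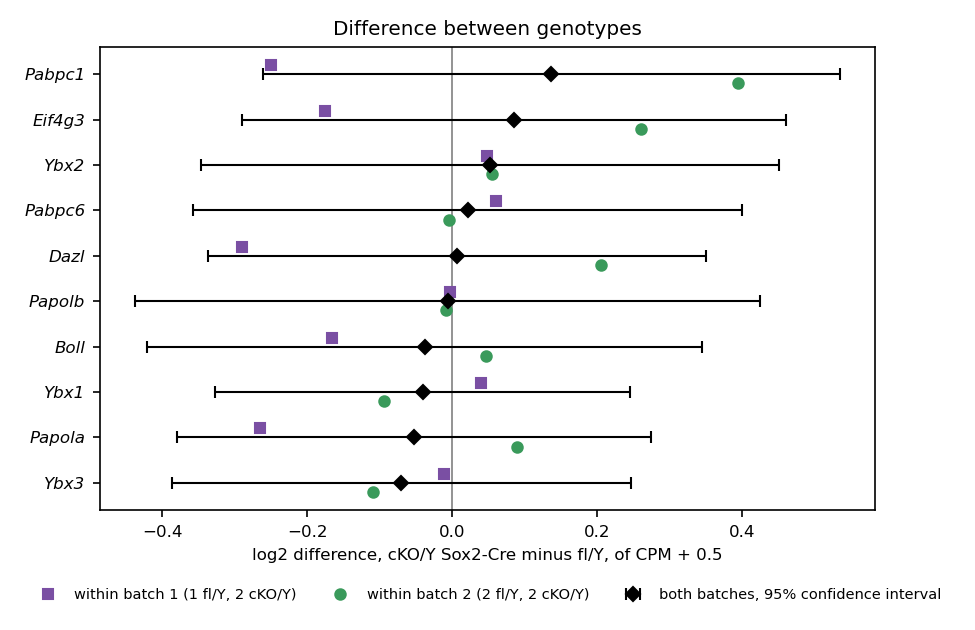
Log2 difference between genotypes for each gene, with its 95% confidence interval from limma (black), and the difference within batch 1 (purple squares) and within batch 2 (green circles). Every interval holds 0, and for 7 of 10 genes the 2 batches lie on opposite sides of 0.

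The differences within the batches had opposite signs for 7 of the 10 genes, beside 51.6% of all genes tested. *Ybx2*, *Ybx3* and *Papolb* had the same sign in both, at 0.048 and 0.055, at -0.012 and -0.11, and at -0.0034 and -0.0078 for batches 1 and 2. Batch 1 holds 1 fl/Y library, so its differences have no spread on that side.

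Ratios within a library do not depend on how its size was scaled, and each sets a gene beside a related gene. Their size does depend on the length used for each gene, here that of all exons. Per kb of exon, the ratio of *Ybx2* to *Ybx1* was 1.44, 1.75 and 2.25 in fl/Y and 2.35, 1.31, 2.18 and 2.35 in cKO/Y, with cKO/Y replicate 2 below all others. The ratio of *Ybx3* to *Ybx1* had the narrowest range, at 1.92 to 2.09 in fl/Y and 1.80 to 2.17 in cKO/Y, and was the only one of the 5 whose batches did not overlap (1.80 to 1.92 in batch 1 and 1.95 to 2.17 in batch 2). *Papolb* stood 5.36 to 7.49 times above *Papola* in fl/Y and 5.33 to 7.19 times above it in cKO/Y. *Boll* stood 1.32 to 1.73 times above *Dazl* in fl/Y and 1.23 to 1.92 times above it in cKO/Y.

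*Pabpc6* and *Pabpc1* were close to each other per kb of all exons, with ratios of 1.24, 1.06 and 0.886 in fl/Y and 0.576, 1.31, 0.912 and 1.32 in cKO/Y. By the longest transcript they were further apart, with fl/Y means of 131 CPM per kb for *Pabpc6* and 279 for *Pabpc1*. The lowest ratio was that of cKO/Y replicate 1, in which *Pabpc1* was highest and *Pabpc6* lowest. Between genotypes, the log2 ratios differed by 0.16 for *Ybx2* over *Ybx1*, -0.052 for *Ybx3* over *Ybx1*, 0.031 for *Papolb* over *Papola*, -0.11 for *Pabpc6* over *Pabpc1* and -0.0016 for *Boll* over *Dazl*. Exact permutation tests (two-sided) gave p from 0.514 to 0.971, and 0.971 for each after Benjamini-Hochberg adjustment over the 5 ratios. With 35 arrangements of 3 and 4 libraries the smallest p possible is 0.0571, so no ratio could have passed a threshold of 0.05.

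These tests hold no batch term, and batch 1 has a larger part of the cKO/Y than of the fl/Y libraries. Within batches 1 and 2 the differences were 0.0085 and 0.15 for *Ybx2* over *Ybx1*, whose log2 ratio differed by -0.44 (batch 2 minus batch 1), and -0.051 and -0.015 for *Ybx3* over *Ybx1*. They were 0.26 and -0.097 for *Papolb* over *Papola*, 0.31 and -0.40 for *Pabpc6* over *Pabpc1*, and 0.12 and -0.16 for *Boll* over *Dazl*, so the last 3 had opposite signs in the 2 batches.

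**Figure D3:**
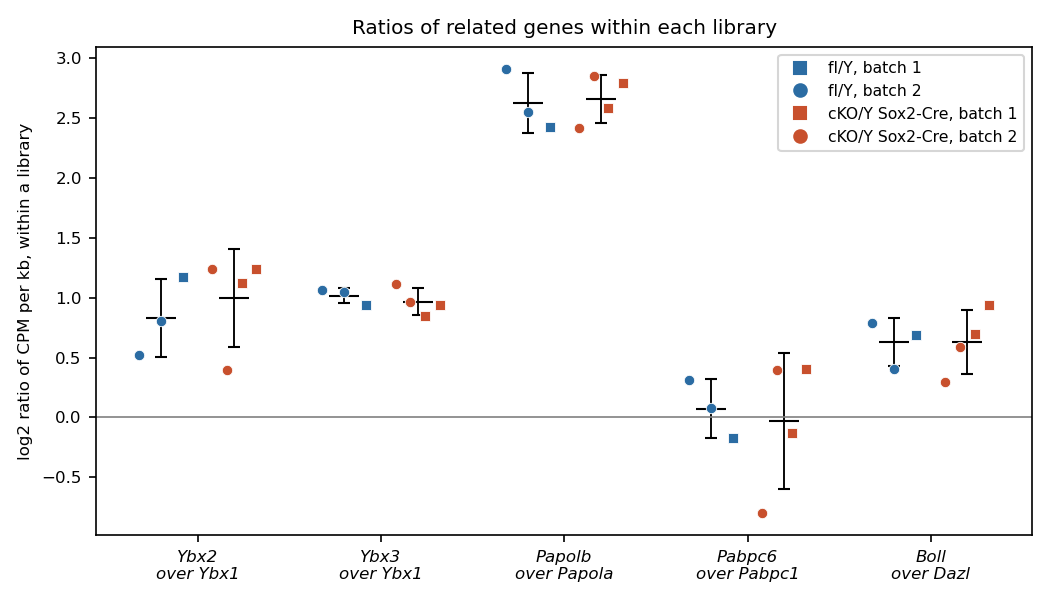
Log2 of the ratio of CPM per kb of all exons between related genes within each library, by genotype (fl/Y in blue, cKO/Y in orange) and batch (squares batch 1, circles batch 2), with mean and SD in black. *Papolb* lies above *Papola* in all 7 libraries, *Pabpc6* and *Pabpc1* lie near 0, and the genotypes overlap for all 5 ratios.

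Per kb of the union of exons, the 10 genes spanned from 21.7 CPM per kb (*Papola*, mean of 7 libraries) to 396 CPM per kb (*Ybx2*). All lay in the upper part of the 19363 genes with a length, from the 88.4th percentile for *Papola* to the 99.7th for *Ybx2* and *Ybx3*. In fl/Y the levels were 362 ± 140 CPM per kb (SD, n = 3) for *Ybx2* and 394 ± 43.1 for *Ybx3*, whose ranges overlapped, then 195 ± 30.7 for *Ybx1*, which lay below the range of *Ybx3* in all 7 libraries. *Papolb* (143 ± 49.4), *Pabpc6* (131 ± 22.7) and *Pabpc1* (124 ± 18.5) overlapped one another, and the range of *Papolb* also overlapped that of *Ybx1*.

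A gap followed, since *Boll*, at 56.2 ± 10.6 CPM per kb in fl/Y, was below *Pabpc1* in every library. *Boll* was above *Dazl* (36.4 ± 7.53) in 7 of 7 libraries although their ranges overlapped. *Dazl* was above *Papola* (22.6 ± 3.55) in 7 of 7 libraries too, and their fl/Y ranges, 28.1 to 42.8 and 20.1 to 26.7 CPM per kb, did not overlap. *Eif4g3* (28.8 ± 8.82) overlapped both, and was below *Dazl* in 4 and above *Papola* in 5 of 7 libraries. With the length of the longest transcript in place of all exons, *Pabpc1* rose to 279 CPM per kb in fl/Y, above both *Papolb* and *Pabpc6*, so its place in the order depends on which exons are counted. Over all 7 libraries, *Ybx3* and *Ybx2* had means of 651 and 446 CPM per kb by that length, and of 392 and 396 by all exons.

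**Figure D4:**
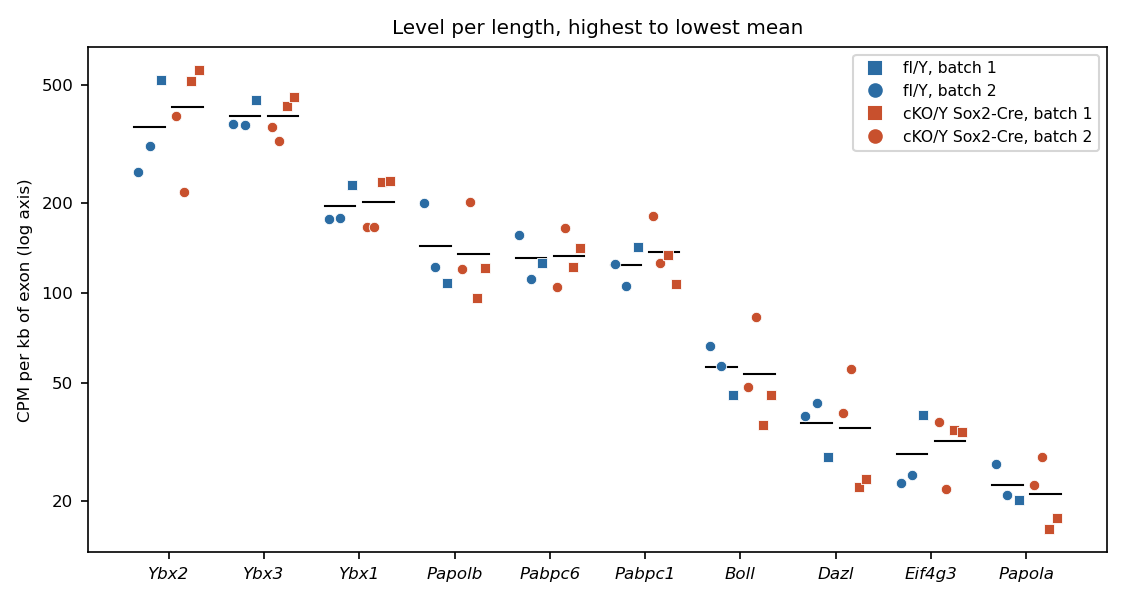
CPM per kb of exon on a log axis for each gene and library, ordered by the mean over 7 libraries, by genotype (colour) and batch (squares batch 1, circles batch 2), with the mean of each genotype as a line. *Ybx2* and *Ybx3* lie highest, and the range of *Ybx1* overlaps those of *Papolb* and *Pabpc1*. *Papolb*, *Pabpc6* and *Pabpc1* share 1 range, and *Papola* is lowest by mean, with no library above 28.0 CPM per kb.

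Relatives outside the 10 genes give the scale. *Pabpc1l*, the poly(A)-binding protein of oocytes, was at 0.843 ± 0.158 CPM per kb of all exons (SD, n = 3) in fl/Y and *Pabpc4* at 1.13 ± 0.857. *Pabpc2* was at 178 ± 38.6, above the means of both *Pabpc1* and *Pabpc6* by that length. By its longest transcript *Pabpc1* was at 279 CPM per kb in fl/Y, so its order with *Pabpc2* depends on the length used. Another nuclear poly(A) polymerase gene, *Papolg*, was at 7.42 ± 1.28 CPM per kb in fl/Y. The other scaffold genes *Eif4g1* and *Eif4g2* were at 53.4 ± 4.01 and 95.4 ± 9.34 CPM per kb, both above the 28.8 of *Eif4g3*.

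The wider machinery was read from 9 lists of genes, chosen with earlier results of these data known. Of 148 genes tested on these lists, 138 are outside the 10, and none of the 138 passed the limma test between genotypes or had an unadjusted p under 0.05, beside 2.58% of all genes. Their median log2 difference was -0.0060, beside -0.0055 over all genes tested. Single genes ran from -0.46 for *Lin28a*, which blocks let-7 maturation, to 0.51 for *Nanos1*, a repressor of bound mRNAs, both at under 7 CPM.

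One list holds 18 mRNAs taken as stored and translated late, such as those of the protamines *Prm1* and *Prm2*. When each is translated was not checked here. Among the 18 the median difference was -0.0067 and the smallest unadjusted p was 0.0785 (limma), for *Izumo1*, the sperm ligand of the egg. *Izumo1* was at 63.7 ± 9.63 CPM in fl/Y (SD, n = 3) and 53.5 ± 9.43 in cKO/Y (SD, n = 4), with a log2 difference of -0.30 (SE 0.16, adjusted p = 1.00). *Prm2* was at 1856 ± 965 and 2244 ± 972 CPM, with an SD within each genotype larger than the difference between them, and *Akap3*, a fibrous sheath anchor, was at 934 ± 73.0 and 872 ± 153 CPM.

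In the other lists, the genes with the smallest unadjusted p between genotypes were as follows, none of them past the test. Among 30 repressed mRNP and chromatoid body proteins *Rbmxl2* had a log2 difference of 0.35 (SE 0.19) and *Ddx3y* one of -0.35. Among 22 genes of deadenylation and decapping, the decapping enhancer *Edc3* had -0.37 (SE 0.23) and the piRNA trimmer *Pnldc1* had -0.35 (SE 0.24). Among 14 polymerases and terminal transferases, *Tent4a* had 0.35 (SE 0.22) and *Papolg* had -0.19 (SE 0.17).

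*Cpeb1* and *Cpeb3*, which bind cytoplasmic polyadenylation elements, had the smallest p among 21 polyadenylation factors, with *Cpeb1* at 0.40 (SE 0.28), with -0.13 within batch 1 and 0.74 within batch 2. Among 12 poly(A)-binding proteins and partners these were *Pabpn1* and *Pabpc1l*, among 14 initiation factors *Eif4e* (-0.19, SE 0.15) and *Eif4ebp2*, among 10 DAZ and Nanos family genes and partners *Nanos1*, and among 7 cold shock domain genes *Lin28a* and *Lin28b* (-0.13, SE 0.20). Medians of these 8 lists lay between -0.058 and 0.066.

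Marker lists of germ cells and somatic cells were compared between genotypes in the same fit. Summed over 11 meiotic spermatocyte markers, fl/Y libraries had 1392 to 2158 CPM and cKO/Y libraries 1041 to 2370.2 CPM, and over 10 elongating spermatid markers they had 9674 to 12226 and 9022 to 13848 CPM. Of 79 marker entries tested, 5 had an unadjusted limma p under 0.05 (*Stra8*, *Rhox5*, *Star* and *Hsd3b6* lower, *Pecam1* higher), beside 2.58% of all genes. None of the 79 passed the adjusted threshold. The summed ranges of the genotypes overlapped for spermatogonia (448 to 625 and 400 to 636 CPM), round spermatids (1157 to 1297 and 1077 to 1323), Sertoli cells (583 to 858 and 580 to 998), Leydig cells (491 to 620.1 and 452 to 782), peritubular and endothelial cells (118 to 129 and 89.5 to 162) and macrophages and blood (31.0 to 51.1 and 35.5 to 43.5).

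More of the 10 genes were separated by batch than by genotype. The limma fit gave an adjusted p under 0.05 for 2 of 10 genes between batches, beside 1370 of 19400 genes (7.06%), of which 672 were higher (3.46%) and 698 lower (3.6%) in batch 2. *Ybx2* was lower in batch 2, by a log2 difference of -0.88 (SE 0.19, adjusted p = 0.0151), at 554 ± 144 CPM (SD, n = 4) against 1003 ± 47.3 (SD, n = 3) in batch 1. *Dazl* was higher in batch 2, by 0.82 (SE 0.16, adjusted p = 0.0106), at 168 ± 29.6 against 94.3 ± 11.6 CPM.

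The 2 batches did not overlap for 6 of the 10 genes, beside 23.6% of all genes. *Ybx1*, *Ybx2* and *Ybx3* were lower in all 4 batch 2 libraries, and *Papola*, *Boll* and *Dazl* were higher in all 4. The remaining differences, batch 2 minus batch 1, did not pass the adjusted threshold. They were -0.46 for *Ybx1* (adjusted p = 0.0528, limma), -0.45 for *Eif4g3* (0.128), -0.32 for *Ybx3* (0.190), 0.56 for *Boll* (0.0705), 0.53 for *Papolb* (0.119), 0.44 for *Papola* (0.0906), 0.079 for *Pabpc1* and 0.027 for *Pabpc6*. Their median size was 0.45 over the 10 genes and 0.30 over all genes.

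**Figure D5:**
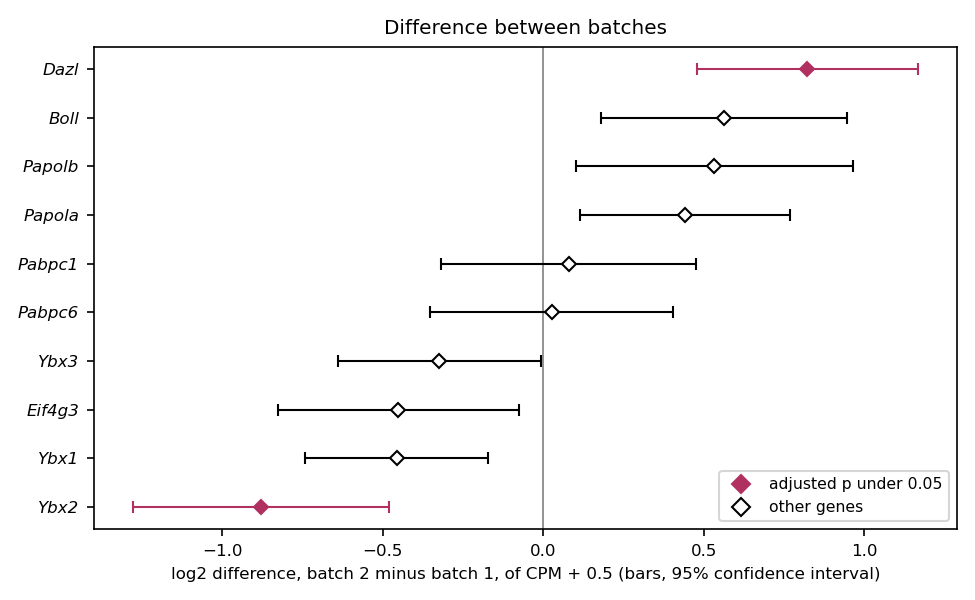
Log2 difference between batches (batch 2 minus batch 1) for each gene with its 95% confidence interval from limma, filled where the adjusted p is under 0.05. *Ybx2* at -0.88 and *Dazl* at 0.82 lie at opposite ends, and *Pabpc1* and *Pabpc6* lie near 0.

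Both calls between batches depend on single libraries and on the variance model. Without fl/Y replicate 3, and without cKO/Y replicate 3, neither gene passed (limma adjusted p = 0.132 and 0.0641 for *Ybx2*, 0.0599 and 0.0734 for *Dazl*), without cKO/Y replicate 4 only *Dazl* did (*Ybx2* 0.0552), and without a trend in the prior variance neither did (0.119 and 0.107). Without cKO/Y replicate 1, 6 of the 10 genes passed. Scaling by total count moved the median batch difference of all genes from -0.018 to -0.24, with *Ybx2* at -1.13 and *Dazl* at 0.58 (adjusted p = 0.0631). Under that scaling 3 of the 10 genes passed, namely *Ybx2*, *Ybx1* (limma adjusted p = 0.0311) and *Eif4g3* (0.0274).

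Other genes of the pathway also differed between batches, 26 of the 138 (18.8%), and 28 of 148 with the 10 included. Over all genes tested the share was 7.06%, with 3.46% higher and 3.6% lower in batch 2. Of the 18 mRNAs on the list of late-translated mRNAs, 8 were lower in batch 2 and none higher, among them *Prm2* (log2 difference -1.12, SE 0.23, limma adjusted p = 0.0134) and *Spata18* (-0.99, SE 0.16, adjusted p = 0.00455). The other 6 were *Odf1*, *Acrbp*, *Odf2*, *Prm3*, *Tnp2* and *Gpx4*, with log2 differences of -0.57 (*Gpx4*) to -0.89 (*Tnp2*). Of the 10 DAZ and Nanos family genes and partners tested, 3 were higher in batch 2 and none lower, and these were *Dazl*, *Ythdc2* and *Meioc*, the latter 2 encoding partners needed for meiotic prophase. Of 30 repressed mRNP genes, 5 were higher (*Ddx6*, *Ptbp2*, *Fmr1*, *Qk* and *Tsn*) and *Rbmxl2* was lower. *Pabpn1* (-1.08, adjusted p = 0.00983) and *Pabpc4* were lower and *Larp4* higher, while *Papolg*, *Tent5d*, *Cpsf6*, *Cnot1*, *Cnot7* and *Dcp2* were higher and *Cpeb3* lower.

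Markers and RNA make-up moved with the batch too. Of 11 meiotic spermatocyte markers, 5 were higher in batch 2 (limma, adjusted p under 0.05), beside 3.46% of all genes. Summed over the 11, levels were 1835 to 2370.2 CPM in batch 2 against 1041 to 1392 CPM in batch 1. Of 10 elongating spermatid markers, 4 were lower, beside 3.6% of all genes. Sums over the 10 were 9022 to 10195 against 12083 to 13848 CPM, and several of these markers are also on the list of late-translated mRNAs. None of 11 round spermatid or 10 spermatogonial markers passed, and their sums were 1077 to 1273 against 1297 to 1323 CPM and 448 to 636 against 400 to 456 CPM. Mitochondrial genes took 12.7% to 21.4% of reads in batch 2 and 5.88% to 9.31% in batch 1. The rRNA genes, with those of mitochondria counted again, took 18.8% to 31.3% and 7.07% to 10.7%. The 31.3% for rRNA genes and the 12.7% for mitochondrial genes are both of cKO/Y replicate 1, the library in which *Pabpc1* was highest. The part of these in the differences of *Ybx2*, *Dazl* and the other genes was not tested.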

How the data were processed

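Total testis RNA was sequenced as paired ends of 35 bases, from 3 control and 4 *Rlim*-deleted males. The deposited table holds a signal in CPM per gene and library, made by the authors. Per the submitters' processing notes the tools were HISAT2 2.1.0, featureCounts and edgeR (GRCm38), and the methods give TopHat and HTSeq instead. Every value (100%, within 0.001 read) was a whole multiple of 1 read, which gave the reads of each library, and the scaling equalled TMM.

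The limma fit (version 3.58.1, R 4.3.3) ran on log2(CPM + 0.5) of 19400 genes above 1 CPM in 3 or more libraries, with genotype, batch and a variance trend. P-values are two-sided, Benjamini-Hochberg adjusted over all genes, with a threshold of 0.05. Alternatives changed the pseudocount (0.1 and 1), the filter, the scaling, the variance model or the batch term, used each batch alone or a replicate block, left out each library, or ran edgeR 4.0.16 and DESeq2 1.42.0 on recovered reads. The fit was tested on simulated data. The 10 genes and all lists were chosen with earlier results of these data known. Outside the 10 genes, the text names *Rlim*, relatives of the 10, the 2 genes of each pathway list with the smallest unadjusted p between genotypes, and pathway genes past the threshold between batches (1 gene under this rule is not reported here), while *Prm1*, *Prm2* and marker genes were named after their values were seen. Lengths and 35-base words came from GENCODE M21 on GRCm38, and promoters from RefSeq on GRCm38.p6.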

Additional observations from a re-analysis of the deposited data

Results flagged for a closer look

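The within-library log2 ratio of *Ybx2* over *Ybx1* in cKO/Y Sox2-Cre replicate 2 stood apart from the other 3 cKO/Y libraries, with a gap of 0.8696 of the group's whole range, above the 95% critical value of Dixon's test for 4 samples. Per kb of exon its ratio was 1.31, beside 2.18 to 2.35 in the other 3, and *Ybx2* was at 411 CPM in this library, the lowest of all 7. The group mixes batches, since cKO/Y replicates 3 and 4 are of batch 1, where all ratios were 2.18 to 2.35. Within batch 2 the ratio was 1.44 and 1.75 in fl/Y replicates 1 and 2, and 2.35 and 1.31 in cKO/Y replicates 1 and 2. Of 15 such groups examined, 10 of CPM and 5 of ratios, this was the 1 that stood out, and chance gives about 1 in 20 groups.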

How the results depend on the processing

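None of the 10 genes passed the threshold between genotypes under any of 20 alternatives (200 values, smallest adjusted p = 0.808). The sign of their small log2 differences changed under some: in batch 1 alone for *Dazl* (-0.29), *Eif4g3* (-0.18), *Pabpc1* (-0.25) and *Ybx1* (0.040), in batch 2 alone for *Boll* (0.047), *Pabpc6* (-0.0044) and *Papola* (0.090), without a batch term for *Dazl* (-0.13) and *Ybx1* (0.036), with DESeq2 for *Boll* (0.0032) and *Papolb* (0.0076), and with edgeR for *Papolb* (0.0018). Leaving out 1 library gave ranges of -0.25 to 0.13 for *Boll*, -0.16 to 0.21 for *Dazl*, -0.14 to 0.26 for *Eif4g3*, -0.059 to 0.39 for *Pabpc1*, -0.14 to 0.19 for *Pabpc6*, -0.17 to 0.090 for *Papola*, -0.19 to 0.18 for *Papolb* and -0.16 to 0.26 for *Ybx2*. *Ybx1* and *Ybx3* kept a negative sign. Over all genes, the count of 1 (*Rlim*) became 28 in batch 1 alone, where the lone fl/Y library is assumed to vary like the cKO/Y ones, and 0 in batch 2 alone, without a batch term, without a variance trend and with the replicate block. Leaving out 1 library gave 0 to 3 genes and 0 of the 10. It was 0 without fl/Y replicate 1 or fl/Y replicate 3, 3 without cKO/Y replicate 2 and 2 without cKO/Y replicate 3. The cause of these changes was not tested.

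The difference in log2 ratio changed sign in batch 1 alone for *Boll* over *Dazl* (0.12) and *Pabpc6* over *Pabpc1* (0.31), and in batch 2 alone for *Papolb* over *Papola* (-0.097). Leaving out 1 library gave -0.11 to 0.11 for *Boll* over *Dazl*, -0.25 to 0.15 for *Pabpc6* over *Pabpc1*, -0.071 to 0.17 for *Papolb* over *Papola*, 0.0078 to 0.36 for *Ybx2* over *Ybx1* and -0.10 to -0.012 for *Ybx3* over *Ybx1*.

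Libraries with the same replicate number are of the same batch, and the labels tie them in no other way, so they were not treated as pairs. Their deviations from the genotype means correlated at 0.101, 0.066 and 0.392, and 4 of 6 libraries were closest to their own number. The batch was not removed from these deviations, so they cannot decide whether the libraries are paired. With the number as a replicate block, 0 of the 10 genes passed, and the sign changed for *Pabpc6* (-0.018) and for *Papolb* over *Papola* (-0.013).

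Between batches, alternatives added after the data were seen gave 0 genes of the 10 and 122 of all genes without a variance trend. With total count scaling they gave 3 of the 10 and 2319 of all genes, and *Pabpc1* (-0.17) and *Pabpc6* (-0.22) changed sign. Leaving out 1 library gave 73 to 3030 genes and 0 to 6 of the 10, and ranges of -0.12 to 0.34 for *Pabpc1* and -0.13 to 0.20 for *Pabpc6*. With edgeR, 2 of the 10 passed. With the filter at a mean CPM above 5, 3 of the 10 passed, *Ybx1* among them (limma adjusted p = 0.043). By length of the longest transcript, levels in fl/Y were 304 CPM per kb for *Ybx1*, 74.9 for *Boll*, 46.8 for *Dazl*, 39.2 for *Eif4g3* and 34.0 for *Papola*. With 3 and 4 libraries, changes smaller than the intervals given could not be seen, and polyadenylation, storage and translation of these mRNAs were not measured by RNA levels.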
